A study of Mus musculus with 2 samples.

Results

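The cells described here are the mouse embryonic stem cells that scored highest for 8 genes of the formative state, and they are called formative-leaning cells or members. From both libraries, barcodes with at least 2500 unique molecular identifiers (UMIs, each marking 1 captured molecule), at least 1000 genes and at most 10% of UMIs in mitochondrial genes were kept. The score is the summed UMIs of Otx2, Pou3f1, Lef1, Fgf5, Dnmt3a, Dnmt3b, Sox4 and Zic2 per 10000 UMIs of the cell, and the top 10% of the pooled cells are the members. They number 770 of 7709 kept cells, 564 of 4978 in the library called control and 206 of 2731 in the library called sonKD. Each is described against the other kept cells of its own library.

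Both libraries came from E14 cells, an embryonic stem cell line of 129/Ola background, cultured on gelatin with serum and leukaemia inhibitory factor (LIF). Control cells received a control small interfering RNA (siRNA), and sonKD cells received an siRNA against Son, which encodes a nuclear speckle protein that acts in splicing. Cells of both groups were transfected by lipofection, frozen and thawed, and sorted as live by the dye 7-AAD before droplet barcoding (10x Genomics 3' chemistry). Each group is 1 library, so cells are not replicates, and the siRNA and the library cannot be told apart. No test was made. Every interval is a 95% interval of counting error only.

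Formative pluripotency is the stage between the naive state of the preimplantation epiblast and the primed state, when cells become able to respond to germ layer signals. In serum and LIF, stem cells move between naive-like and more advanced states, and fibroblast growth factor (FGF) signalling through ERK drives the exit from the naive state. OTX2 and POU3F1 are transcription factors that re-direct POU5F1 to formative enhancers, DNMT3A and DNMT3B lay down new DNA methylation, LEF1 is a nuclear effector of WNT signalling, FGF5 is a growth factor of the postimplantation epiblast, and SOX4 and ZIC2 are transcription factors.

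Because the score chose the members, the levels of its 8 genes are a description. Dnmt3b, on chromosome 2 (GRCm38, 153649450 to 153687730), stood at 143 UMIs per 1000000 UMIs (CPM) in control members and 30.1 CPM in the other control cells. In sonKD it stood at 148 and 31.3 CPM. Its fellow methyltransferase Dnmt3a stood at 93.5 against 18.6 CPM in control and at 97.1 against 21.3 CPM in sonKD. These 2 enzymes gave most of the score: 37.0% of the score UMIs of control members were Dnmt3b and 24.2% were Dnmt3a.

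Sox4 stood at 59.4 against 15.4 CPM in control and at 47.2 against 14.0 CPM in sonKD. Pou3f1 stood at 45.4 against 9.14 CPM in control and at 43.0 against 8.10 CPM in sonKD. Otx2 stood at 40.1 against 7.36 CPM in control and at 40.7 against 7.43 CPM in sonKD. Zic2, Lef1 and Fgf5 were near the detection limit, with 15, 8 and 1 UMIs over all control members and 6, 1 and 2 over all sonKD members. The label therefore rests on 5 of its 8 markers, and Fgf5, the gene most tied to a late formative or primed state, was all but unread.

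Membership rests on few molecules. Members carried a median of 3 UMIs of the 8 genes in control and 4 in sonKD, where the other cells carried medians of 0 and 1. A median of 2 of the 8 genes was detected per member in both libraries, and 22.2% of control members and 19.4% of sonKD members had only 1. Member scores had a median of 3.55 in control and 3.40 in sonKD and reached 18.2 and 12.4. The last cells inside the limit scored 2.740, 2.739 and 2.737 and the first outside 2.736, 2.732 and 2.729, so the limit cuts through a continuous range. Of the 3 last inside, 2 cells had 2 score UMIs each among 7299 and 7301 UMIs in all.

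**Figure D1:**
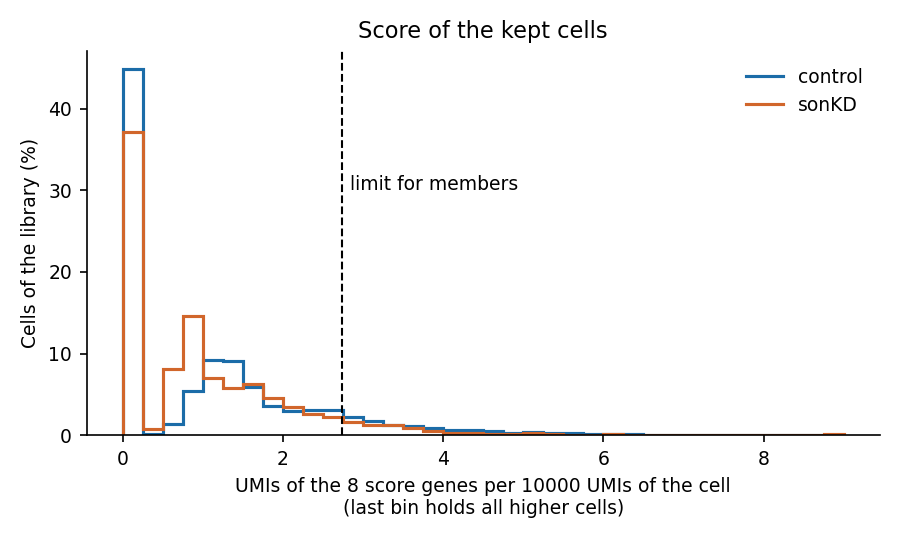
Distribution of the score in the kept cells of each library: the x axis gives UMIs of the 8 genes per 10000 UMIs, the y axis the percent of the library's cells in bins of 0.25. The dashed line is the limit of 2.737 for members, and no gap in either curve lies at it.

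Members made up 11.3% of kept cells in control (10.5 to 12.2), against 7.54% in sonKD (6.58 to 8.60). Depth moved with this share: control members had a median of 7238 UMIs and the other control cells 7776, while sonKD members had 10545.5 and the other sonKD cells 11664. In a shallow cell 2 UMIs pass the limit, and in a deeper cell 3 or more are needed. With every cell thinned to 2500 UMIs, at least 1 UMI of the 8 genes was held by 23.1% of cells in control (21.9 to 24.3) and by 22.8% in sonKD (21.2 to 24.4). At least 2 were held by 3.46% (2.97 to 4.0) and 3.08% (2.46 to 3.79). The intervals of these thinned shares overlap between the libraries. Over all kept cells without thinning, the summed level of the 8 genes was 114 CPM in control and, in sonKD, 104 CPM, a log2 difference of -0.14 (-0.20 to -0.07). Members of the 2 libraries stood at 387 and 381 CPM.

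Other library measures were close between members and other cells. Medians of mitochondrial UMIs were 3.77% in members and 3.64% in others in control, and 4.14% and 4.10% in sonKD. Ribosomal protein genes took 18.4% and 19.2% of UMIs in control and 21.8% and 22.5% in sonKD. Kept cells of both libraries shared 2 barcodes, and neither was a member. Doublet calling did not work, since Scrublet called 0.0603% of control and 0.0366% of sonKD cells. Among the cells with the highest doublet scores, taken at the expected rate, were 2.66% of control members and 4.15% of other control cells, and 1.46% and 2.26% in sonKD.

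How far the excess of the 8 genes goes beyond the sampling of a few molecules was read in molecules that had not chosen the cell. The UMIs of each cell were divided at random into 2 equal portions, cells were chosen on the first portion, and the 8 genes were read in the second. In the first portion the genes stood 7.15-fold (control) and 6.35-fold (sonKD) above the remaining cells. In the second portion they stood 1.54-fold (1.37 to 1.72) and 1.74-fold (1.5 to 2.01) above them. Most of the excess was therefore in the molecules used for the choice, and a smaller part was found again in both libraries. Cells chosen on the first portion were also chosen on the second in 22.1% of 535 control cells and 19.1% of 235 sonKD cells, beside 11.1% and 7.98% of all cells.

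The part found again differed by gene. Dnmt3a stood 1.82-fold higher (1.45 to 2.28) in the second portion in control and 1.84-fold (1.37 to 2.44) in sonKD. Dnmt3b stood 1.6-fold (1.31 to 1.93) and 1.70-fold (1.32 to 2.16) higher. Otx2 stood 1.87-fold (1.30 to 2.65) and 2.17-fold (1.33 to 3.41) higher. For these 3 genes both intervals lay above 1. Pou3f1 stood at 1.26-fold (0.85 to 1.81) in control and 2.17-fold (1.40 to 3.27) in sonKD. Sox4 stood at 0.99-fold (0.70 to 1.36) in control and 1.44-fold (0.95 to 2.10) in sonKD, so in control no excess of Sox4 was seen in the second portion.

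**Figure D2:**
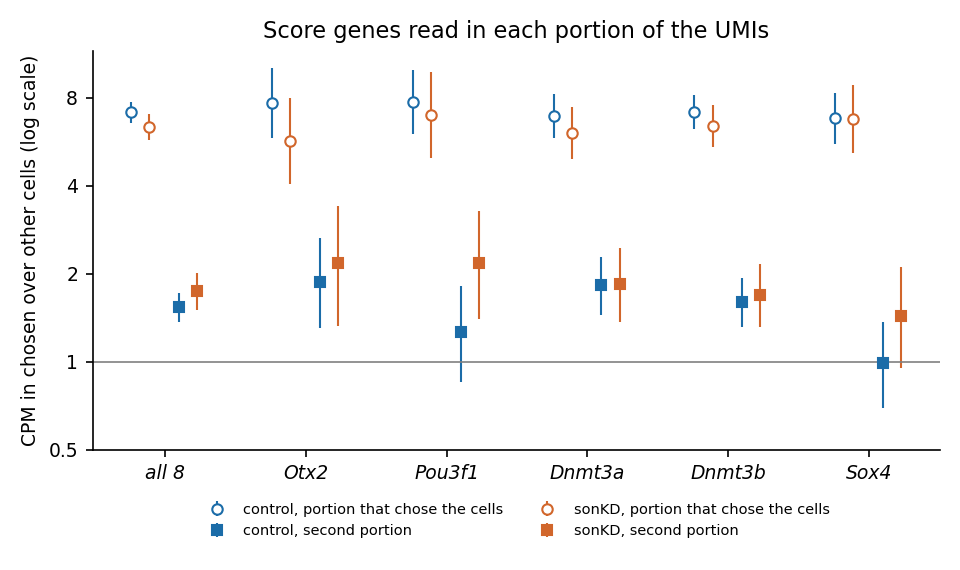
CPM of the 8 score genes together and of the 5 genes with enough UMIs in chosen over other cells, on a log axis. Open circles are the portion of the UMIs that chose the cells and filled squares the second portion, with 95% counting intervals; the squares sit between 0.99 and 2.17 where the circles sit between 5.71 and 7.75, and Sox4 in control is the lowest square.

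Each gene was also read in cells chosen by the other 7, which asks whether the markers occur together. Cells chosen without Dnmt3b had a log2 ratio of Dnmt3b of 0.45 (0.24 to 0.64) in control and 0.62 (0.34 to 0.88) in sonKD. For Dnmt3a the ratios were 0.40 (0.14 to 0.65) and 0.24 (-0.15 to 0.61), and for Pou3f1 0.56 (0.19 to 0.90) and 0.39 (-0.21 to 0.94). Otx2 had 0.26 (-0.17 to 0.67) and 0.55 (-0.06 to 1.10), and Sox4 had 0.04 (-0.29 to 0.36) and 0.28 (-0.20 to 0.73). The ratios were above 0 for all 5 genes in both libraries, but only for Dnmt3b did both intervals exclude 0. In a neighbour graph built without the 8 genes, members were 12.6% of the 15 nearest cells of members and 9.43% of those of other cells in control, and 9.32% and 5.40% in sonKD. Beside these, members were 11.3% of all kept cells in control and 7.54% in sonKD. Members were thus more often the neighbours of members than of other cells in both libraries, and made up a minority of the neighbours of either.

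Genes outside the score were then compared. Of the 5999 genes that averaged 20 CPM or more, 87 stood at least 1.2-fold higher in members in both libraries, which is 1.45% of those measured. At least 1.2-fold lower in both were 14 genes, or 0.233%. With library scaling by TMM (trimmed mean of M values, which assumes that most genes are level), 31 were higher and 61 lower, so the balance between the directions depends on the scaling. TMM moved every ratio by -0.07 in control and -0.08 in sonKD. Ratios over all genes had a median of 0.03 in control and 0.02 in sonKD, with 5th and 95th percentiles of -0.17 and 0.26 in control and -0.28 and 0.31 in sonKD. Ratios were above 0 in both libraries for 36.8% of the genes and below 0 in both for 22%. The counting interval of a gene had a median width of 0.38 in control and 0.56 in sonKD, so in sonKD the interval of a typical gene at the 1.2-fold limit of 0.26 reaches 0.

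**Figure D3:**
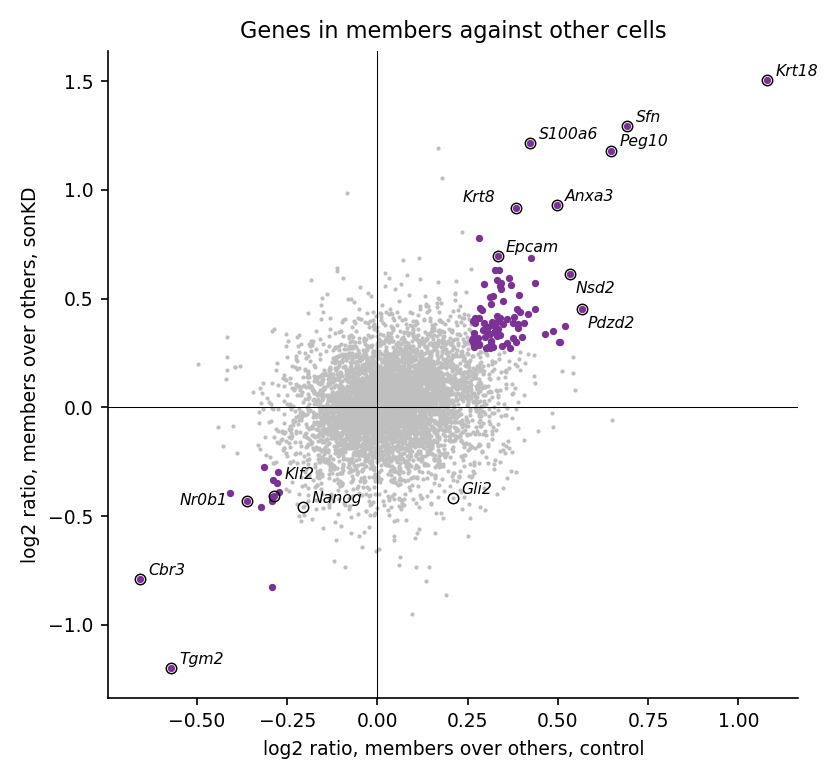
Log2 ratio of each gene in members over other cells, in control (x axis) and sonKD (y axis); each point is 1 of 5999 genes, and purple points pass 1.2-fold in the same direction in both libraries. Krt18 sits farthest out at 1.08 and 1.5, Cbr3 and Tgm2 sit at the low end, and Nanog and Gli2 are circled outside the purple set.

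The naive pluripotency list had medians below 0 in members of both libraries, and 2 of its genes passed the 1.2-fold limit. Of 22 listed, 18 were measured; 11 had ratios below 0 in both libraries and 2 above 0 in both, beside 22% and 36.8% of all genes. Klf2 and Nr0b1 passed the limit downward, beside 0.233% of all genes. The median ratio was -0.06 in control and -0.25 in sonKD. Medians of the lower and upper interval ends of its genes were -0.14 and 0.05 in control, which span 0, and -0.43 and -0.06 in sonKD. The order of the libraries depends on how cells were scored: with scores from cells thinned to 2500 UMIs the medians were -0.13 in control and -0.10 in sonKD, and with the mean of CPM per cell -0.02 and -0.09. Klf2, a KLF-family factor of the naive network, stood at 320 CPM in control members and 390 in other cells, a log2 ratio of -0.29 (-0.37 to -0.21). In sonKD it stood at 263 and 348 CPM, a ratio of -0.41 (-0.53 to -0.29). Nr0b1 (Dax1), an orphan nuclear receptor of the same network, had ratios of -0.36 (-0.59 to -0.14) and -0.43 (-0.73 to -0.14).

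Nanog, a homeobox gene known for its varying level among serum-grown stem cells, stood at 149 against 172 CPM in control and at 113 against 156 CPM in sonKD. Its ratios were -0.21 (-0.32 to -0.09) and -0.46 (-0.65 to -0.27). It was detected in 61.5% of members and 69.1% of other cells in control, and in 60.7% and 74.5% in sonKD. Jam2, a junction protein gene, had ratios of -0.20 and -0.45, and Tfcp2l1, a target of LIF signalling, of -0.06 and -0.31. Esrrb, another naive factor, was level in control at -0.01 (-0.14 to 0.11) and had -0.28 (-0.48 to -0.09) in sonKD. Klf4 had -0.13 and -0.26, and Zfp42 (Rex1) only -0.09 and -0.13. The LIF receptor gene Lifr ran the other way in control, at 0.33, and stood at -0.01 in sonKD. TMM scaling and CPM without mitochondrial and ribosomal protein genes lower every ratio of a library by a fixed amount. The list median therefore stayed below 0 under both by construction.

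The difference between the libraries in these genes was not tested. Side by side, the naive list had a median sonKD over control log2 ratio of -0.28 in members and -0.11 in the other cells, where all 5999 genes had -0.12 and -0.11. For Nanog the same ratio was -0.40 (-0.62 to -0.19) in members and -0.15 (-0.20 to -0.09) in others. For Esrrb it was -0.37 (-0.60 to -0.14) and -0.10 (-0.16 to -0.04).

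Core pluripotency genes were near level by their medians, and their sums were slightly lower in members. The summed list had -0.07 (-0.09 to -0.06) in control and -0.03 (-0.05 to -0.006) in sonKD. The summed naive list had -0.08 and -0.23, so in control the sums of the lists were alike. Pou5f1 stood at 1068 CPM in control members and 1109 in the others, a ratio of -0.05 (-0.10 to -0.01), and at 915 and 916 CPM in sonKD. Sox2 had ratios of -0.02 (-0.10 to 0.05) and -0.09 (-0.20 to 0.02). The list's 7 measured members had medians of 0.02 in control and -0.002 in sonKD, the first turning negative under TMM, and none of the 7 passed 1.2-fold in both libraries. Zfp281, a zinc finger factor tied to the exit from naive pluripotency, stood apart in sonKD alone at 0.40 (0.13 to 0.67), with 0.04 (-0.16 to 0.24) in control.

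Formative and primed genes that the score does not use had small ratios, mostly above 0. Of 20 listed, 10 were measured, with medians of 0.17 and 0.14 (0.10 and 0.05 under TMM). Among the 10, 7 were above 0 in both libraries and 1 below 0 in both, beside 36.8% and 22% of all genes. Medians of the lower and upper interval ends of these genes were 0.03 and 0.32 in control, and -0.09 and 0.31 in sonKD, which span 0. Only Enc1, an actin-binding protein gene, passed the 1.2-fold limit in both, beside 1.45% of all genes, at 0.30 (0.11 to 0.48) and 0.57 (0.29 to 0.83). Tcf15, a basic helix-loop-helix factor found in cells primed to leave the naive state, stood at 361 against 308 CPM in control and at 359 against 320 CPM in sonKD, ratios of 0.23 (0.15 to 0.30) and 0.16 (0.06 to 0.27). Utf1, a chromatin factor, had 0.13 (0.06 to 0.20) and 0.19 (0.10 to 0.28). The ETS factor gene Etv4 had 0.10 and 0.40. All of the genes compared by name here are among the 7 above 0 in both libraries. Of the 10 measured, 2 differed in sign between the libraries, and 3 were below 0 in sonKD and 1 in control. Cdh2, the N-cadherin gene of primed cells, was read from only 9 control and 8 sonKD UMIs in members and is not compared.

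A receptor and feedback genes of FGF-ERK signalling had ratios above 0. Of 13 listed genes 8 were measured, 6 were above 0 in both libraries and none below 0 in both, beside 36.8% and 22% of all genes, with medians of 0.30 and 0.23 (0.23 and 0.15 under TMM). The receptor gene Fgfr2 had 0.33 (0.13 to 0.53) and 0.39 (0.08 to 0.69). Dusp6, an ERK phosphatase induced by the pathway, had 0.34 (0.05 to 0.62) and 0.57 (0.19 to 0.94), and Spred1, an inhibitor of RAS activation, had 0.29 (0.14 to 0.45) and 0.36 (0.13 to 0.57). These 3 passed the 1.2-fold limit in both libraries, beside 1.45% of all genes. The inhibitor gene Spry2 had 0.54 in control and 0.16 in sonKD. The ligand gene Fgf4 had 0.12 and -0.21, and the receptor gene Fgfr1 -0.12 and 0.06.

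The BMP target genes Id1 and Id3 passed the 1.2-fold limit in both libraries, beside 1.45% of all genes. Id1 stood at 316 against 262 CPM in control and at 230 against 173 CPM in sonKD, ratios of 0.27 (0.19 to 0.35) and 0.41 (0.27 to 0.54). Id3 had 0.49 (0.26 to 0.71) and 0.35 (-0.04 to 0.72). Both encode inhibitors of basic helix-loop-helix factors and are known in serum-grown stem cells as BMP-responsive genes that go with self-renewal. The ligand gene Bmp4 had 0.26 (0.08 to 0.44) and 0.11 (-0.18 to 0.38). The receptor gene Bmpr1a differed in sign, at -0.13 in control and 0.36 in sonKD. Of the list's 8 genes 4 were measured, with medians of 0.27 and 0.35.

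Nodal and WNT genes showed less. The 5 measured Nodal genes of 13 had medians of 0.15 and 0.12, and none passed 1.2-fold in both. Skil, a repressor of SMAD signalling, had 0.34 and 0.22, and the inhibitor gene Smad7 had 0.15 and 0.16. Nodal itself had 0.06 in control and -0.30 in sonKD. The 6 measured WNT genes of 14 had medians of -0.02 and 0.05, the second turning negative under TMM, and none passed. Among DNA methylation genes outside the score, Dnmt3l, the cofactor of the new-methylation enzymes, had 0.24 (0.04 to 0.43) and 0.41 (0.14 to 0.67). The maintenance pair stayed near level, with 0.10 and 0.09 for Dnmt1 and 0.11 and 0.18 for Uhrf1. The 7 measured genes of the list had medians of 0.10 and 0.04, the second turning negative under TMM.

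**Figure D4:**
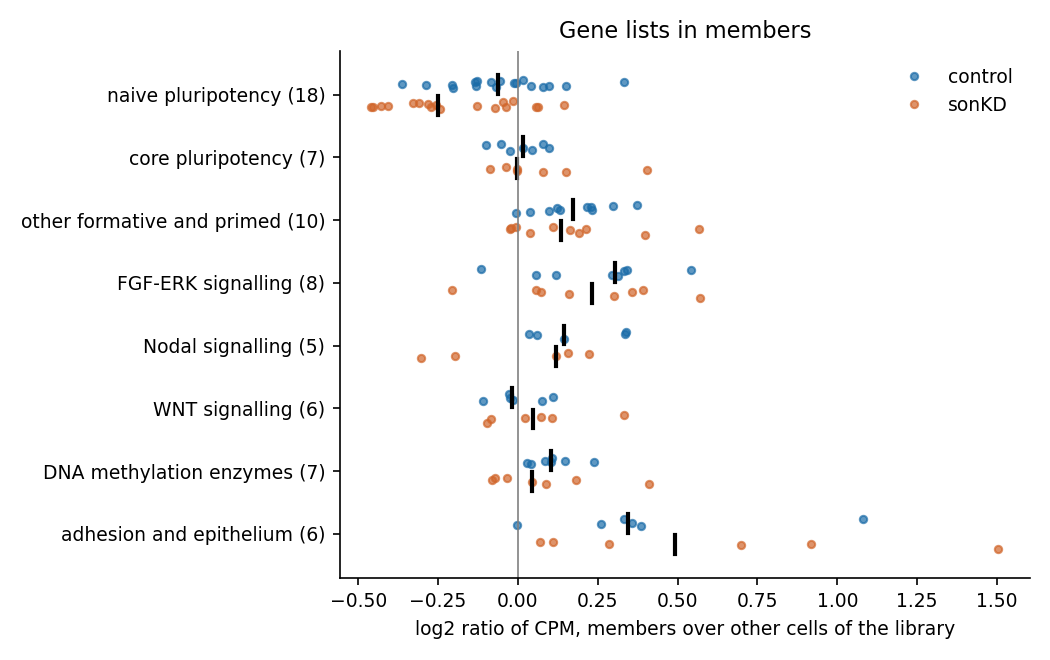
Log2 ratio, members over other cells, of every measured gene (points) of 8 gene lists in control (blue) and sonKD (orange), with the list median as a black bar and the number of measured genes in parentheses. The naive bars sit at -0.06 and -0.25, those of FGF-ERK at 0.30 and 0.23, and the core bars at 0.02 and -0.002.

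Krt18 and Sfn, both genes of epithelia, had the highest ratios by the smaller of the 2 libraries. Krt18, a simple-epithelium keratin gene on chromosome 15 (GRCm38, 102028180 to 102032027), stood at 38.3 against 18.1 CPM in control and at 85.6 against 30.2 CPM in sonKD. Its ratios were 1.08 (0.83 to 1.33) and 1.5 (1.27 to 1.73). Sfn, the epithelial 14-3-3 sigma gene, had 0.69 (0.53 to 0.85) and 1.29 (1.12 to 1.46). S100a6, a calcium-binding protein gene, had 0.42 (0.29 to 0.55) and 1.21 (1.12 to 1.31), and the annexin gene Anxa3 had 0.50 and 0.93. S100a6 was detected in fewer members (28.4%) than others (34.8%) in control, and in 57.8% and 53.2% in sonKD. In control 5 member cells held 23.3% of its UMIs, and without those 5, with the others left as they were, its ratio was 0.06 (-0.09 to 0.20). Of 10 adhesion and epithelium genes 6 were measured, 5 were above 0 in both libraries, beside 36.8% of all genes, and Krt18, Krt8 and Epcam passed 1.2-fold in both, beside 1.45%; the medians were 0.34 and 0.49.

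A handful of cells carried the keratins. Of the Krt18 UMIs of members, 5 cells held 47.9% in control and 65.9% in sonKD. Cells with at least 5 Krt18 UMIs were 4 of 564 members (0.709%) and 6 of 4414 others (0.136%) in control, and 5 of 206 members (2.43%) and 17 of 2525 others (0.673%) in sonKD. Without such cells in members and others alike, the Krt18 ratio was 0.36 in control and 0.68 in sonKD. Krt8, the partner keratin, moved from 0.38 and 0.92 to -0.17 and -0.18. Krt8 was also detected in fewer members (18.4%) than others (23.3%) in control, and in 22.3% and 28.6% in sonKD. The member cells with at least 5 Krt18 UMIs had Krt8 at 1622 and 1578 CPM, only 2 and 1 Nanog UMIs, and no Gata6 UMI. Their Pou5f1 stood at 510 and 676 CPM, from 22 and 45 UMIs, which is below the other members. Such cells outside the members had Krt8 at 731 and 1333 CPM, below such cells among the members, and Pou5f1 at 506 and 699 CPM. They had 1 and 3 Nanog UMIs and no Gata6 UMI. Summed trophectoderm markers, from an epithelium that uses these keratins, were also higher in members: 14.7 against 10.8 CPM in control, a ratio of 0.44 (0.04 to 0.83), and 21.7 against 12.5 CPM in sonKD, a ratio of 0.80 (0.33 to 1.24). These sums of 8 genes include the keratin gene Krt7 and rest on 64 UMIs in control members and 47 in sonKD members. They were not read without the cells of at least 5 Krt18 UMIs. None of the 8 was measured singly, 1 was at 0 UMIs in control members and 2 in sonKD members, and Elf5 was at 0 in all cells. Their part in the keratin values was not tested.

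Epcam, Sfn, S100a6, Anxa3 and Cdh1 kept their side of 0 without these cells. Epcam, the epithelial adhesion gene, had 0.33 and 0.70 with them and 0.33 and 0.68 without. Sfn had 0.47 and 1.19 without them, and S100a6 had 0.28 and 1.09. Cdh1, the E-cadherin gene, differed by library: 0.36 (0.21 to 0.50) in control and 0.11 (-0.12 to 0.33) in sonKD. S100a6 was higher in sonKD than in control by 1.96 (1.81 to 2.11) in members and by 1.17 (1.11 to 1.23) in the other cells, and the difference between these was not tested.

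The ratios differed with the score gene a cell carried. Cells with a UMI of a given score gene after thinning, members or not and with or without others of the 8, were compared with cells that kept none. These 3828 control and 2108 sonKD cells include cells with score UMIs at full depth, where 2232 and 1015 cells scored 0. With Pou3f1, Krt18 stood at 1.59 (1.2 to 1.95) in 149 control cells and 2.20 (1.89 to 2.49) in 67 sonKD cells, and with Sox4 at -0.16 (-0.72 to 0.35) and 1.84 (1.56 to 2.11). These high values rested on a few cells. Leaving out the cells of at least 5 Krt18 UMIs, 1 and 2 of those with Pou3f1 and 3 of the sonKD cells with Sox4, gave 0.52 (-0.07 to 1.05) and -0.97 (-2.19 to 0.02) with Pou3f1 and -0.53 (-1.33 to 0.16) with Sox4 in sonKD. With Dnmt3b, Krt18 moved from 0.58 and 0.46 to 0.002 and 0.45 without such cells. With Dnmt3a it stood at -0.19 (-0.69 to 0.28) and -1.15 (-1.76 to -0.59), and with Otx2 at -0.38 (-1.23 to 0.35) and -0.35 (-1.08 to 0.28). Without such cells Krt18 had -0.38 (-0.94 to 0.13) and -0.62 (-1.24 to -0.06) with Dnmt3a. With Otx2 it then had -0.26 (-1.11 to 0.48) and 0.17 (-0.56 to 0.81), a change of sign in sonKD. For both genes in sonKD, the cells left out were all among those that kept none. Sfn and S100a6 went with Dnmt3b, at 0.71 and 0.91 for Sfn and 0.57 and 0.92 for S100a6, and ran the other way with Dnmt3a, at -0.42 and -0.79 for Sfn and -0.84 and -0.75 for S100a6. For Sfn and S100a6, cells with Dnmt3a and cells with Dnmt3b after thinning thus lay on opposite sides of the cells that kept none. The same held without the cells of at least 5 Krt18 UMIs, where Sfn had 0.57 and 0.84 with Dnmt3b and -0.56 and -0.65 with Dnmt3a. Cbr3 was lower with Dnmt3a, Dnmt3b, Otx2 and Pou3f1 in both libraries, from -0.35 to -0.77 (with intervals that reached 0 for Otx2 and Pou3f1 in control), and differed in sign only with Sox4, at 0.20 in control and -0.60 in sonKD.

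Other genes near the top were of mixed kinds. Peg10, an imprinted gene derived from a retroelement, stood at 40.1 against 25.6 CPM in control and at 53.7 against 23.7 CPM in sonKD, ratios of 0.65 (0.41 to 0.88) and 1.18 (0.89 to 1.47). It went with Dnmt3b, at 0.74 and 1.08. Nsd2, a histone H3 lysine methyltransferase gene, had 0.53 (0.29 to 0.77) and 0.61 (0.24 to 0.97). Pdzd2, Tpm1 (tropomyosin), Arhgap10, Grip1, Bbx and Mpped2 completed the 12 highest, with ratios from 0.40 to 0.57 in control and 0.43 to 0.68 in sonKD. Without the cells of at least 5 Krt18 UMIs, Tpm1 moved from 0.44 to 0.21 in control and from 0.57 to 0.36 in sonKD, and Grip1 from 0.68 to 0.41 in sonKD. In control 1 member cell held 48 of the 374 Tpm1 UMIs of members.

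At the low end stood Cbr3, a carbonyl reductase gene. It was at 32.1 against 50.7 CPM in control and at 49.0 against 84.8 CPM in sonKD, ratios of -0.66 (-0.92 to -0.41) and -0.79 (-1.08 to -0.51). It was detected in 18.4% of members and 28.7% of others in control and in 32.0% and 45.5% in sonKD. Tgm2, a transglutaminase gene, had -0.57 (-0.94 to -0.22) and -1.2 (-1.92 to -0.56). Fgf17, an FGF ligand gene, had -0.28 and -0.35, and the keratin gene Krt17 -0.29 and -0.43. Diablo, Ankrd35, Ttc28, Bach1 and Bbs9 had ratios from -0.29 to -0.41 in control and -0.33 to -0.83 in sonKD, with at least 1 interval reaching 0 for each. Ftl1-ps1 had -0.27 and -0.30, but it is a processed copy of the ferritin light chain gene Ftl1, and reads of the pair may be split between them.

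**Figure D5:**
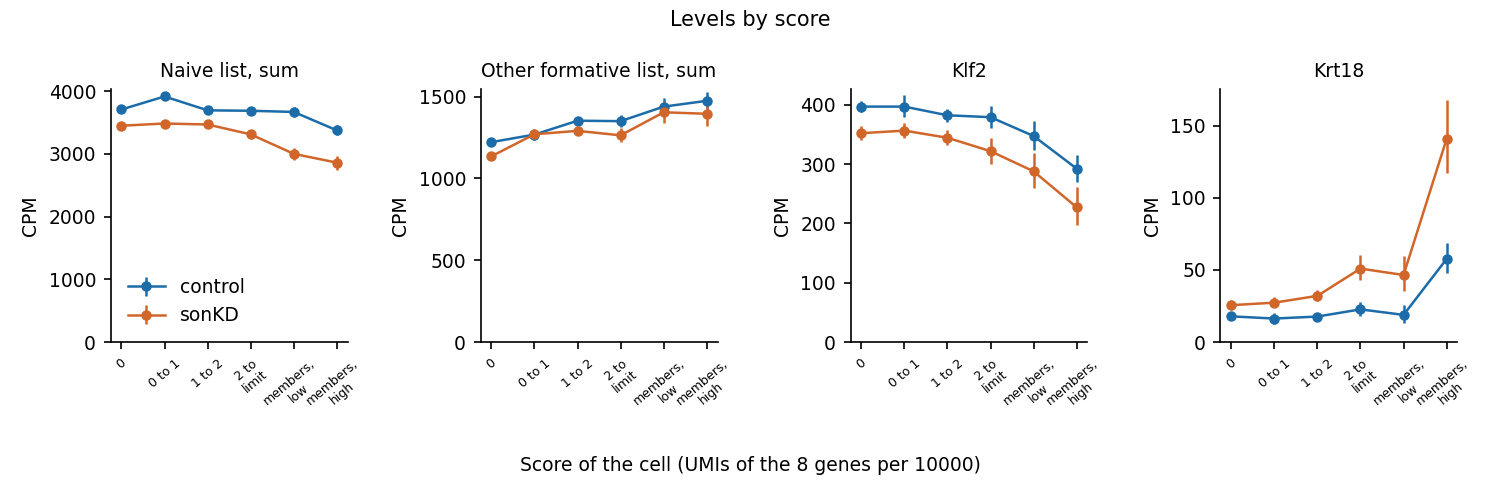
Summed CPM of the naive list and of the other formative list, and CPM of Klf2 and Krt18, in cells binned by score (x axis, from 0 to members above their median), with 95% counting intervals for control (blue) and sonKD (orange). Naive and Klf2 levels are lowest and Krt18 highest in members above their median score. The Krt18 values include the few cells of at least 5 Krt18 UMIs.

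From members below to members above their median score, Klf2 and the summed naive and core lists fell in both libraries. Krt18 and the summed adhesion and FGF-ERK lists rose in both, and the adhesion list holds Krt18 and Krt8. Intervals of these members overlap for Klf2 and the naive sum in sonKD, the core sum in control and the FGF-ERK sum in both. Nanog in sonKD was near level there, and Tcf15 and the other formative sum differed in direction between the libraries. The naive list summed to 3707 CPM in control cells with a score of 0, 3915 CPM in those above 0 and below 1, 3668 CPM in members below the median member score of 3.52 and 3375 CPM in members above it. In sonKD the sums were 3448, 3483, 3000 and 2860 CPM. For a score of 0 and for the lower and upper members, Klf2 stood at 397, 347 and 292 CPM in control and at 352, 288 and 227 CPM in sonKD. Nanog in control was 173, 169 and 130 CPM, so its lower level was in the members of highest score only, while in sonKD it was 151, 114 and 113 CPM, lower in both sets of members. The other formative list summed to 1222, 1439 and 1474 CPM in control and to 1135, 1404 and 1395 CPM in sonKD. Tcf15 was 346 and 376 CPM in lower and upper members in control and 381 and 327 CPM in sonKD. Krt18 stood at 17.8, 18.8 and 57.6 CPM in control and at 25.6, 46.5 and 141 CPM in sonKD, so in control its excess was in the members of highest score alone. These values include the cells of at least 5 Krt18 UMIs, which held 45.5% and 65.9% of the Krt18 UMIs of members. Such members also held 70 Krt8 UMIs in control and 105 in sonKD. Neither Krt18 nor the adhesion sum was read by score without these cells.

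Markers of differentiated lineages stayed low in members. None of 9 mesoderm and primitive streak, 8 trophectoderm, 9 feeder fibroblast and 10 listed 2C-like genes in the files reached 20 CPM. Mesoderm genes summed to 10.5 CPM in control members and 7.58 in others, and to 7.86 and 8.50 CPM in sonKD, with T at 0 UMIs in members of both libraries. Feeder genes summed to 3.44 CPM in control members and 4.63 CPM in sonKD members, beside 4.82 and 4.72 CPM in the others, and 2C-like genes had no UMI in members. Primitive endoderm genes summed to 86.4 against 78.7 CPM and 56.9 against 64.4 CPM, with Sox17 at 0 UMIs in members and only Lama1 measured (-0.04 and -0.37). Neuroectoderm genes summed to 120 against 117 CPM in control and to 81.9 against 103 CPM in sonKD, and Tubb3 had -0.14 and -0.25. The part of these markers in the results above was not tested.

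Phase shares of members and others were close. By scores in thinned cells, 57.6% of control members (53.4 to 61.7) and 55.9% of other control cells were called S, and 39.7% and 41.9% G2/M. In sonKD 54.9% and 55.0% were called S and 40.3% and 41.7% G2/M. The 40 measured S phase genes had medians of 0.03 and 0.02 and the 49 G2/M genes of -0.03 and -0.003. Among S phase genes Ung, Cdc45 and Cdca7 had 0.23, 0.26 and 0.14 in control and 0.26, 0.22 and 0.20 in sonKD, and among G2/M genes Cdc20 had 0.17 and 0.21, Cks1b 0.11 and 0.13 and Cdca2 -0.15 and -0.19. The 16 measured p53 targets had medians of -0.04 and 0.09, with Cdkn1a at -0.19 and -0.26, Phlda3 at -0.20 and -0.12 and Sesn1 at 0.16 and 0.15.

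Son, the gene targeted by the siRNA, was lower in sonKD in members and others alike. It stood at 172 CPM in control members and 111 CPM in sonKD members, a log2 difference of -0.63 (-0.84 to -0.42), and at 168 and 105 CPM in the other cells, -0.68 (-0.74 to -0.61). Within a library its member ratio was 0.03 (-0.08 to 0.14) and 0.08 (-0.11 to 0.27), both turning negative under TMM. The paraspeckle RNA Neat1 was lower in members, at -0.19 (-0.36 to -0.03) and -0.24 (-0.39 to -0.10), and higher in sonKD by 1.31 in members and 1.35 in others. Malat1, an abundant nuclear RNA, was slightly higher in members, at 0.10 (0.07 to 0.13) and 0.15 (0.11 to 0.19), and the imprinted RNA Meg3 had 0.32 (0.22 to 0.41) and 0.17 (0.03 to 0.31).

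Free RNA was read in barcodes of 100 to 500 UMIs, which hold little beyond background. Dnmt3b stood at 13.3 CPM there in control and 8.42 CPM in sonKD, Dnmt3a at 11.7 and 12.8 CPM and Otx2 at 4.90 and 3.49 CPM. All are below the members, and no cell type lacking these genes was at hand for comparison. Other genes stood in free RNA at or near their level in cells. S100a6 had 173 CPM in control free RNA against 132 CPM in members, and 293 CPM in sonKD, above the 221 CPM of the other cells. Cbr3 had 58.7 and 113 CPM, above both sets of cells in both libraries. Id1 had 331 CPM in control and 170.0 CPM in sonKD, and Krt18 had 17.3 CPM in control against 18.1 CPM in the other cells. The part of free RNA in these ratios was not tested.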

How the data were processed

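Values are raw UMI counts for each gene in each barcode, as deposited; the authors made them with Cell Ranger 7.1.0, per the file headers. The submitters' processing notes name mm10; the annotation and the use of intronic reads are not given in the sources used here. Libraries totalled 71046373 (control) and 60352438 (sonKD) UMIs over all barcodes. Members and gene lists were chosen with earlier results of these data known.

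In each library, counts of members and of the other kept cells were summed separately and scaled to CPM. For log2 ratios no pseudocount was used, and counts below 3 were raised to 3. Genes needed a mean of 20 CPM over both libraries. Intervals at 95% are exact Poisson for levels, Clopper-Pearson for shares and conditional binomial for ratios, and cover counting error only. With 1 library per group no test was made. Named genes are the score genes, Son, the 12 highest and 12 lowest by the smaller ratio of the 2 libraries, the 3 farthest from 0 in each list, and Pou5f1, Sox2, Nanog, Esrrb, Zfp42, Klf4, Malat1, Neat1, Cdh1 and Cdh2; other list genes were named after their values were seen. Phases, Scrublet and neighbours used scanpy 1.11.5 and TMM used edgeR 4.0.16. Doublets were kept, and the alternative without them removed the highest scores at 0.8% per 1000 cells. Gene positions are from GENCODE on GRCm38. Ratios were also recomputed without the cells of at least 5 Krt18 UMIs, a choice made after seeing the data. The ratio code was tested on simulated data.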

Additional observations from a re-analysis of the deposited data

Results flagged for a closer look

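Single ratios of opposite sign in the 2 libraries, with counting intervals that exclude 0 on both sides, were found for Gli2, a transcription factor of hedgehog signalling, and Cdca3, a mitotic regulator gene. Gli2 had a member to other log2 ratio of -0.42 in sonKD and 0.21 in control. Cdca3 had 0.24 in sonKD and -0.16 in control. The summed p53 targets likewise had 0.093 in sonKD and -0.052 in control. The difference between the libraries was not tested for any of them, and each rests on 1 library a side.

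The score was also read in barcodes that were not kept because over 10% of their UMIs were mitochondrial. Of these, 20.8% in control (130 of 625) and 17.4% in sonKD (184 of 1056) passed the score limit, above the 11.3% and 7.54% of kept cells. Their median depths were 2973 and 3140.5 UMIs, where 1 UMI of the 8 genes is enough to pass.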

How the results depend on the processing

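Of 113 values recomputed for 9 results, 93 moved by less than their error or, for counts, by less than 1.5 times, 20 moved further and 0 reversed. Reversal meant a change of sign where the main interval excludes 0. Shares, counts and medians whose interval spans 0 could therefore not be called reversed. The balance of genes higher and lower did turn over under TMM, from 87 and 14 to 31 and 61. Scoring cells thinned to 2500 UMIs, with at least 2 UMIs required, gave shares of 3.46% in control and 3.08% in sonKD; the top 5% gave 5.91% and 3.33%, and the top 10% within each library 9.98% and 10.0%. The count of genes higher in both libraries, 87, became 141 (thinned), 178 (top 5%), 31 (TMM), 18 (at 50 CPM), 1699 (no filter on genes) and 3 (1.5-fold). The count lower in both, 14, became 74, 60, 61, 6, 524 and 1 under the same settings, and 26 with at most 5% mitochondrial UMIs. The unfiltered counts hold genes with a few UMIs, whose ratios are coarse by construction. The Son difference in members was -0.27 when thinned scores chose the cells, which left 256 cells; the cause was not tested. The naive and other formative medians kept their sign in both libraries under all alternatives run. For the naive medians this was fixed in advance under TMM and under CPM without mitochondrial and ribosomal protein genes, which lower every ratio. The naive median in sonKD was -0.10 with thinned scores, where control had -0.13.

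With 8 genes weighted alike, 502 of 770 chosen cells were the same. Depth limits the score to a few UMIs a cell. No leave-one-out was possible with 1 library per group. No paired analysis was possible because each group has 1 library.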

Other observations

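Gene span went with the member to other ratio in control and hardly in sonKD. Across 5999 genes, Spearman's rho of the log2 ratio with genomic span was 0.35 in control and 0.04 in sonKD, given as a description, since genes share libraries and are not independent. Of the 87 genes higher in members in both libraries, 31.0% spanned over 100 kb, beside 14.6% of all genes tested.

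Promoters of RefSeq on GRCm38 were matched for 7 of the 12 highest and 8 of the 12 lowest genes. Only the 250 bases before each start were searched, and a gene counted if any of its promoters held a motif. None of these 15 genes held TAATCC (OTX core), ATTTGCAT (POU octamer) or CTTTGAT (LEF and TCF core) there on either strand, where 7.21%, 1.81% and 3.72% of all 27025 genes with a promoter did. Of 6 matched score genes, Otx2 itself held TAATCC.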
